A study of Mus musculus with 3 samples.

Results

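Chromatin accessibility was examined at 6 genes of the proximal limb programme, Meis1, Meis2, Meis3, Pbx2, Pbx3 and Shox2, in mesenchymal progenitors (MPs) of the mouse forelimb. A peak was taken as belonging to a gene where it overlapped the gene body or the 50 kb on either side of it in mm10 (GRCm38), so within each window position alone chose the peaks. The 6 genes themselves were picked with earlier results of these data known. These windows held 161 of 190443 peaks in the E12.5 library, 81 of 102459 in that of E14.5 and 159 of 213613 in that of E16.5. Peaks of different libraries that overlapped by at least 1 bp were merged, which gave 206 member regions among 266531 in the series. The genes lie at chr11:18879817-19018985 (Meis1, minus strand), chr2:115863064-116065839 (Meis2, minus), chr7:16175090-16186504 (Meis3, plus), chr17:34591266-34597400 (Pbx2, plus), chr2:34171457-34373142 (Pbx3, minus) and chr3:66971727-66981771 (Shox2, minus).

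Meis and Pbx genes encode homeodomain proteins of the TALE class, which bind DNA together and with Hox proteins as cofactors. In the early limb bud, Meis1 and Meis2 mark the proximal domain, where retinoic acid favours their expression and distal signals restrict it. Shox2, a paired-type homeobox gene, is needed for growth of the stylopod, the limb segment next to the trunk, and Pbx2 and Pbx3 encode partners of the Meis proteins. Meis3 is a paralogue of Meis1 and Meis2.

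Each of the 3 stages, E12.5, E14.5 and E16.5, was represented by 1 scATAC-seq library of sorted tdTomato+ cells from Hic1CreERT2/CreERT2;Rosa26LSLtdTomato/tdTomato embryos on a C57BL/6J background. All embryos carried both alleles and all dams had received 7.5 mg tamoxifen in 300 uL sunflower oil at embryonic day 10, so no unlabelled or untreated group was used here. Recombination was driven from the Hic1 locus and marked cells that expressed Hic1 around the time of tamoxifen, together with their descendants. Embryos of a litter had been pooled, and the sort had gated out cells with the blood and endothelial surface markers CD31, CD45, CD117, Ter119, F4/80 or CD11b. Whole forelimbs were used at E12.5 and E14.5, whereas the E16.5 library came from an elbow segment made of the distal stylopod, the proximal zeugopod and the joint between them. Library depth differed between all stages. The digestion enzymes differed between E12.5 (Dispase) and the later stages (Collagenase A and Pronase), and both the limb segment and the software version of the file headers (1.0.1, then 1.2.0) differed between E14.5 and E16.5. None of these can be told apart from stage. Since a stage had a single library, the spread between replicates is unknown, every interval below is an exact 95% interval for counting error only and no difference was tested between animals.

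The libraries held 8294, 20023 and 14048 nuclei, with a median of 3070, 4496 and 13749 fragment equivalents per nucleus (cut sites per nucleus and peak divided by 2 and rounded up). Promoter peaks took 42.9%, 53.9% and 40.5% of all fragment equivalents, so the E14.5 library stood apart. Pairs of libraries shared between 151 and 401 cell barcodes, and no doublet caller was run. Levels are given as fragment equivalents per 1000000 in autosomal regions called in every library (CPM). At a merged region, each library was counted only within its own peaks, so a printed interval can be wider than the stretch counted. All 6 limb mesenchyme loci checked (Prrx1, Prrx2, Twist1, Twist2, Pdgfra and Col1a2) held peaks in each library, with a median of 2.70, 2.18 and 3.07 CPM per kb of gene. The 12 loci of blood, endothelium, muscle, epithelium and Schwann cells had medians of 0.795, 0.334 and 0.716 CPM per kb, and all 12 held a peak at E12.5 and E16.5. At E14.5 it was 9 of 12, with none at Itgam, Myf5 and Krt5.

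The sequences at the centre of the regions on which the results turn are printed first. The first 7 are intergenic or intronic regions that differed at least 2 times between E12.5 and E16.5. They had the largest increase or decrease among the regions of their gene called in every library. The last 2 are the regions most enriched in nuclei with open cartilage loci, which were chosen after their values were seen. Distances run from the gene's outermost start site, downstream positive. Each line gives 300 bp of GRCm38.p6, 5′ to 3′ on the strand of the gene, in lower case. Capitals mark a match to any of 7 motifs, searched on either strand: TGACAG (MEIS), TGATT directly followed by GACAG (PBX with MEIS), TGATTNAT (PBX with HOX), 2 copies of NGNTCA set 5 bases apart (retinoic acid receptors), TGANTCA (AP-1), TTGGC and GCCAA set 5 bases apart (NFI) and AACCACA (RUNX).
Pbx3 +25 kb, chr2:34346924-34347223, minus strand: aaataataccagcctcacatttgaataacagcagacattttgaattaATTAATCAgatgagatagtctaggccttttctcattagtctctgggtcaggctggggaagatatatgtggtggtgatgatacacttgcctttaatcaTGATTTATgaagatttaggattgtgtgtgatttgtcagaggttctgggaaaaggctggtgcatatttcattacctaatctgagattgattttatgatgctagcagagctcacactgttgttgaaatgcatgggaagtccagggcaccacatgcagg
Pbx3 +11.8 kb, chr2:34360051-34360350, minus strand: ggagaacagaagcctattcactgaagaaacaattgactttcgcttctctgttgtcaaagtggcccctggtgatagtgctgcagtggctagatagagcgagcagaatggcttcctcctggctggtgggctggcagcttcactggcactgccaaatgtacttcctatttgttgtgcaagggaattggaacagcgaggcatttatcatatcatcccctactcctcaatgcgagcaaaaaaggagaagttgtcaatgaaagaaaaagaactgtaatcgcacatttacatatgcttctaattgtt
Meis1 +177.2 kb, chr11:18841648-18841947, minus strand: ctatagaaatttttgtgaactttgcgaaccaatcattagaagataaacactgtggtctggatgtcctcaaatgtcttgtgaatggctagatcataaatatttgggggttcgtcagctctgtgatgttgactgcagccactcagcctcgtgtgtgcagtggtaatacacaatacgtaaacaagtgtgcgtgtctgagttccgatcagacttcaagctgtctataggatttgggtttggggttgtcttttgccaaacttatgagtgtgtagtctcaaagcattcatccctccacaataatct
Meis2 +170.3 kb, chr2:115895343-115895642, minus strand: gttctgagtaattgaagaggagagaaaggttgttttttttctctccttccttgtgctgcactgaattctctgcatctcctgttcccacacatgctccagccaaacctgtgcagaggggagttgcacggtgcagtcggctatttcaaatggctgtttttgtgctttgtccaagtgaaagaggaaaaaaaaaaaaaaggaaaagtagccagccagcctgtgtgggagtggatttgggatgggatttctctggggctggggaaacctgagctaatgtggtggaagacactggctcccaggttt
Meis2 +168.1 kb, chr2:115897586-115897885, minus strand: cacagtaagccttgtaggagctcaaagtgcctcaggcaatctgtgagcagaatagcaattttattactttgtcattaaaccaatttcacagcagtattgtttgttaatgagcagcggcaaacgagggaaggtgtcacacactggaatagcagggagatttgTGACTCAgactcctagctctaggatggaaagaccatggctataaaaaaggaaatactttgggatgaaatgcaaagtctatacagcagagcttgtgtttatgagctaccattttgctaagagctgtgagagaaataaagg
Meis1 +36.4 kb, chr11:18982450-18982749, minus strand: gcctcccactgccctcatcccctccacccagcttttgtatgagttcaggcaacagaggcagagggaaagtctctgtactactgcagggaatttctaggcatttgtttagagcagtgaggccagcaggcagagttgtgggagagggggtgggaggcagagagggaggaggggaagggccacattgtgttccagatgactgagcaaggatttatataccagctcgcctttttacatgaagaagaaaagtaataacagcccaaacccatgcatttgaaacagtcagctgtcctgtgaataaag
Shox2 +41.9 kb, chr3:66939681-66939980, minus strand: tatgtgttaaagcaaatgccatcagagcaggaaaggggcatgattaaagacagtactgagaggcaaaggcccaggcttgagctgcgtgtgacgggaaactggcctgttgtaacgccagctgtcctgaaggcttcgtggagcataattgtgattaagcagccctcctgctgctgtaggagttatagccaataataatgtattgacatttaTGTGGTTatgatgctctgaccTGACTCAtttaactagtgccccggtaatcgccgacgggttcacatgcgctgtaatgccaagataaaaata
Pbx3 +142.0 kb, chr2:34229848-34230147, minus strand: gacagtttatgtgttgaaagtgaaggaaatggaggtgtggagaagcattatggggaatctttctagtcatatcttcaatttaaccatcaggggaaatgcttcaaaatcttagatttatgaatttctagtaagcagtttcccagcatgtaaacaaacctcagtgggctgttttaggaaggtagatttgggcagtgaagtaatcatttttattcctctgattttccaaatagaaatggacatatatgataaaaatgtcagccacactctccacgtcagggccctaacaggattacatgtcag
Shox2 +47.2 kb, chr3:66934383-66934682, minus strand: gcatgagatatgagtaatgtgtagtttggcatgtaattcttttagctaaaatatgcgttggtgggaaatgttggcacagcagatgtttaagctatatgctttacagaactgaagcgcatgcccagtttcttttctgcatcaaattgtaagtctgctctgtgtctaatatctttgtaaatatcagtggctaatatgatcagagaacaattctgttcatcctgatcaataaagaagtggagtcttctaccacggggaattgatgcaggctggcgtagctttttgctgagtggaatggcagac

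The Pbx3 +25 kb element held 2 PBX with HOX matches in its central 300 bp. A match to that motif was present in 3 of 49 non-promoter member regions called in every library and in 5.11% of all 65499 such regions, so it was about as frequent at the members as elsewhere. The MEIS motif was found in 9 of the 49 (18.4%) against 21.4% of all. For AP-1 the count was 7 of 49 (14.3%, 4 of them at Meis2) against 12.2%, and for RUNX it was 6 of 49 (12.2%, 3 of them at Meis1) against 7.55%. The composite PBX with MEIS, retinoic acid receptor and NFI motifs matched none of the 49 regions and 0.14%, 0.939% and 0.119% of all. Among the 21 promoter regions of the windows, 6 held the MEIS motif (28.6%) against 16.3% of 17431. Of 31396 RefSeq promoters on the autosomes, 19% held the MEIS motif and 3.23% the PBX with HOX motif, and none of the 7 motifs matched the 5 member promoters in that set (Meis1, Meis2, Meis3, Pbx2 and Shox2). A match describes letters and not a bound site.

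The 6 genes' own start sites lay in open chromatin at every stage. The Shox2 start region, which also holds the start of Rsrc1, had 58.4, 78.1 and 71.8 CPM in order of stage, an order that is kept for all triplets of levels below. The Pbx3 start had 58.3, 70.6 and 64.1 CPM, and both were lowest at E12.5 and highest at E14.5. The Meis1 start had 54.2, 62.2 and 65.7 CPM. The Meis2 start, an 8.2 kb region shared with 2 non-coding genes (2700033N17Rik and G630016G05Rik), had 53.7, 66 and 70.3 CPM. On this scale both Meis starts were ordered by stage, with no overlap of the counting intervals between neighbouring libraries. Per kb of called width the Meis2 start kept that order (6.63, 8.36 and 8.61 CPM per kb), whereas the Meis1 start was highest at E14.5 (15.3, 20.6 and 17.7 CPM per kb). At E12.5 the intervals of Meis1, Meis2, Pbx3 and Shox2 reached from 51.4 to 60.9 CPM, and neighbours in that order overlapped.

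The Pbx2 start was less open, at 28.9, 42.7 and 31.0 CPM, and Meis3 was the least open member, at 15.6, 18.5 and 22.7 CPM. From E12.5 to E16.5 the log2 ratio at the start region was 0.54 for Meis3 (95% interval 0.42 to 0.67), 0.39 for Meis2 (0.32 to 0.46), 0.30 for Shox2 (0.23 to 0.36), 0.28 for Meis1 (0.21 to 0.35), 0.14 for Pbx3 (0.07 to 0.20) and 0.10 for Pbx2 (0.01 to 0.20). All 6 were above 0, while the median over all 17431 autosomal promoter regions called in every library was -0.01. Only 5% of those promoter regions were at least 2 times higher at E16.5 and 5.37% at least 2 times lower. Of the 21 promoter regions in the member windows, 1 was at least 2 times higher and none 2 times lower. That region lay upstream of Pbx2 beside Gpsm3, and per kb of called width its log2 ratio was 0.90, below 2 times. Per kb of called width the start regions gave 0.94, 0.38, 0.22, 0.21, 0.07 and 0.09 in the same order of genes.

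**Figure D1:**
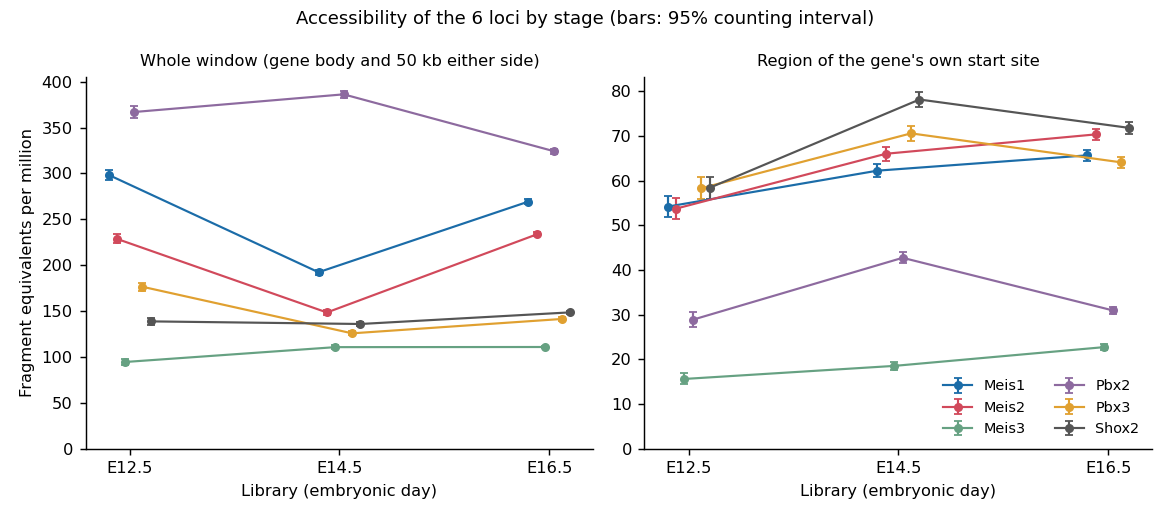
CPM (y axes, from 0) against library for the whole window of each gene (left) and for the region that holds its own start site (right), with 95% counting intervals as bars. The start regions of Meis1 and Meis2 are lowest at E12.5 and highest at E16.5, whereas their window sums are lowest at E14.5, at 192 and 149 CPM, where the called width was also least; per kb of called width both windows are highest at E14.5, at 10.5 and 7.73 CPM per kb.

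After every nucleus was thinned to 1309 fragment equivalents, 5.26%, 9.14% and 6.80% of nuclei had a fragment at the Shox2 start and 5.05%, 8.16% and 6.51% at the Pbx3 start. At the Meis1 start the shares were 5.19%, 7.35% and 6.17%, at Meis2 5.14%, 7.87% and 6.77%, at Pbx2 2.17%, 4.77% and 2.97% and at Meis3 1.85%, 2.16% and 2.33%. For 5 of the 6 genes the share was highest in the E14.5 library, in which promoters as a class took the largest share of fragments, and Meis3 was the exception. With another random thinning, 2 of these shares left their counting interval and 16 did not. The 2 were Pbx2 at E12.5, then 2.65%, and Meis1 at E16.5, then 6.76%. Pbx2 at E16.5 was then 2.82%, close to its E12.5 share. Thinning kept 6221, 19521 and 13834 nuclei and left out 2073, 502 and 214. Without it the shares followed depth, for example 16.7%, 24.6% and 47.5% at Meis1.

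Summed over whole windows, the loci differed more from each other than between stages. The Pbx2 window, which also holds the promoter of Agpat1 and Rnf5, had 367, 386 and 324 CPM. Meis1 had 298, 192 and 269 CPM and Meis2 had 229, 149 and 234 CPM. Pbx3 had 177, 126 and 141 CPM, Shox2 had 139, 136 and 149 CPM and Meis3 had 94.6, 111 and 111 CPM. The E16.5 over E12.5 log2 ratio was -0.32 for Pbx3 (-0.36 to -0.28), -0.18 for Pbx2 (-0.20 to -0.15), -0.15 for Meis1 (-0.18 to -0.12), 0.03 for Meis2 (an interval that included 0), 0.10 for Shox2 (0.06 to 0.14) and 0.23 for Meis3 (0.18 to 0.28). Per kb of called width the ratios were 0.33, -0.32, -0.10, -0.08, -0.04 and -0.13 in the same order of genes, so Pbx3 was then higher and Meis2, Shox2 and Meis3 lower at E16.5. Over the gene body and 2 kb upstream alone, Pbx2 was higher (0.21). The median of the members' window sums was -0.06, beside 0.08 over 18373 windows of autosomal protein-coding genes. Per kb of gene body and 2 kb upstream, Shox2 was the most open member at 6.19, 7.68 and 8.15 CPM per kb and Pbx3 (0.675, 0.496 and 0.583) and Meis2 (0.816, 0.521 and 0.854) were the least open. These values depend on gene length, which was 10045 bp for Shox2, 201686 bp for Pbx3 and 202776 bp for Meis2. At their start regions the same genes had 71.8, 64.1 and 70.3 CPM at E16.5.

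Low E14.5 values went with narrow calls. The windows had 170, 81.5 and 170 kb of called peaks, and in the Meis1 window it was 45.1, 18.4 and 43.6 kb. The Meis1, Meis2 and Pbx3 windows, lower at E14.5 than at E12.5 by log2 ratios of -0.63, -0.62 and -0.49, were also those with the least called width at E14.5 relative to E12.5. Per kb of called width all 6 windows were highest at E14.5, for example at 6.62, 10.5 and 6.17 CPM per kb for Meis1, and the Pbx3 ratio was 0.01 over regions called in every library. The part of calling in these differences was not tested. Of the 206 merged regions, 70 (34.0%) were called in every library, 48 (23.3%) at E12.5 alone, 47 (22.8%) at E16.5 alone and 40 (19.4%) at E12.5 and E16.5. Over all autosomal regions these shares were 31.8%, 19.5%, 27.4% and 17.2%. No member region was called at E14.5 alone, as were 0.257% of all, and 1 (0.485%) at E14.5 and E16.5, as were 2.82% of all. The latter lay in a Meis2 intron 127.2 kb from the start (chr2:115937555-115939814), with 3.50 and 15.4 CPM. At Pbx3, 19 of 43 regions (44.2%) were called at E12.5 alone and 7 (16.3%) at E16.5 alone. At Meis2 the counts were 11 of 58 (19%) and 20 of 58 (34.5%).

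Of the 49 non-promoter regions called in every library, 15 were at least 2 times lower at E16.5 than at E12.5 and 4 at least 2 times higher, where 18.3% and 21.3% of all such regions were. Per kb of called width the counts were 6 lower and 1 higher, beside 10% and 6.22% of all, so most of the calls by CPM did not hold per kb. The median log2 ratio was -0.30 over the members and 0.00 over all 65499, and per kb it was -0.33 and -0.15. By gene, the counts by CPM lower and higher were 5 and 2 of 16 at Meis1, 4 and 1 of 12 at Meis2, 4 and 1 of 7 at Pbx3, 1 and 0 of 5 at Meis3, 1 and 0 of 5 at Shox2 and 0 and 0 of 4 at Pbx2. From E12.5 to E14.5, 17 of 49 were at least 2 times lower (background 19.7%) and 2 at least 2 times higher (12.9%), with medians of -0.64 and -0.27. From E14.5 to E16.5, 8 were at least 2 times higher (19.2%) and 1 at least 2 times lower (8.18%), with medians of 0.19 and 0.24. Per kb, 1 member was at least 2 times higher at E14.5 than at E12.5 (18.8% of all) and none 2 times lower (0.663%), and 10 were at least 2 times lower at E16.5 than at E14.5 (23.4%) and none 2 times higher (0.449%). Adjacent comparisons share the E14.5 library. Over all classes the member median from E12.5 to E16.5 was -0.07. Between E12.5 and E14.5 it was -0.39, but 0.43 per kb of called width. Between E14.5 and E16.5 it was 0.14, and -0.66 per kb.

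**Figure D2:**
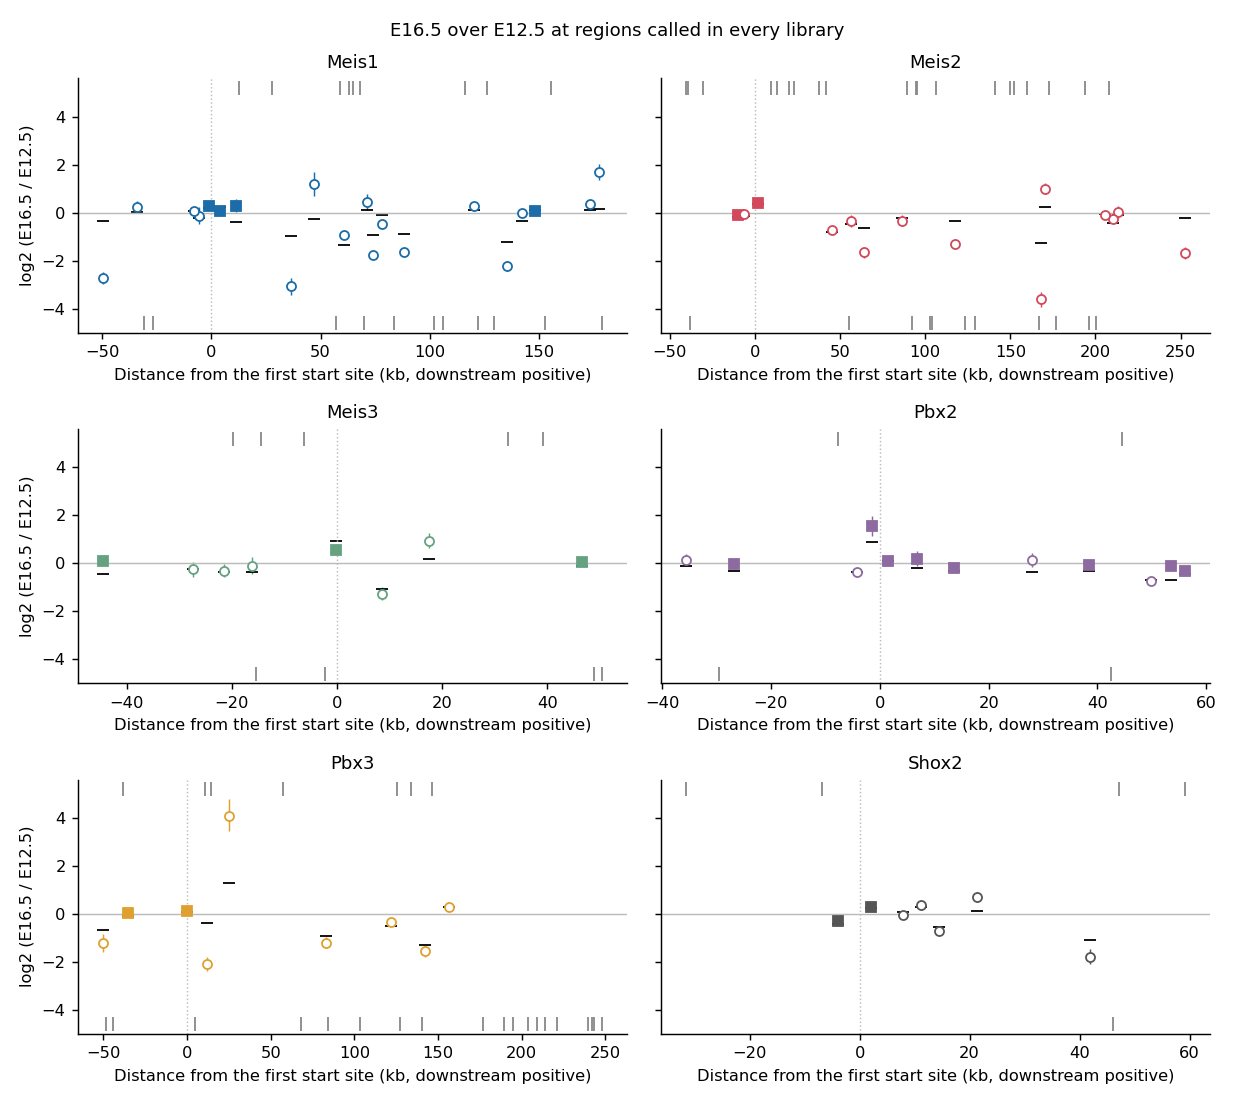
Log2 ratio of E16.5 over E12.5 (y axis) against distance from the first start site in kb (x axis) for the 70 regions called in every library, with 95% counting intervals. Squares are promoter regions, circles other regions, black dashes the same ratio per kb of called width, and grey ticks at the top and bottom regions called at E16.5 alone and E12.5 alone. Promoter squares lie near 0 except that upstream of Pbx2, at 1.54, and the circles spread from -3.60 to 4.08, with the Pbx3 +25 kb and Meis2 +168.1 kb elements at the ends.

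Among regions called in every library, the single largest difference was at Pbx3 +25 kb, an intronic region (chr2:34346568-34347579) with 0.560, 3.94 and 9.48 CPM. It was 16.9 times higher at E16.5 than at E12.5 (log2 4.08, 3.46 to 4.78). The E12.5 level rests on 21 fragment equivalents, against 1600 at E16.5. The called width went from 146 bp to 577 and 1012 bp, and per kb of it the level went from 3.84 to 9.37 CPM, a log2 ratio of 1.29. The opposite pattern was found nearer to the start, at Pbx3 +11.8 kb (chr2:34359447-34360955), with 5.12, 2.27 and 1.21 CPM. That region was 4.22 times lower at E16.5 (log2 -2.08, -2.37 to -1.78) and -0.36 per kb, with a called width of 1509, 362 and 460 bp. Per kb it was highest at E14.5, at 3.39, 6.26 and 2.64 CPM per kb. The most open region of the window other than the start belonged to the neighbouring promoter of Mapkap1 and had 19.7, 22.9 and 20.1 CPM.

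At Meis2, a pair of neighbouring intronic regions differed in opposite directions. Meis2 +170.3 kb (chr2:115894816-115896169) had 4.53, 8.24 and 9.07 CPM and was 2.0 times higher at E16.5 (log2 1.0, 0.77 to 1.24, and 0.25 per kb). Meis2 +168.1 kb (chr2:115897169-115898302) had 8.61, 3.76 and 0.711 CPM and was 12.1 times lower (log2 -3.60, -3.91 to -3.29, and -1.26 per kb). The latter was the largest decrease among all member regions called in every library, and it held an AP-1 match. The most open Meis2 intron region, at +45.1 kb (chr2:116019061-116022367), had 27.8, 15.7 and 17.0 CPM, with the same direction per kb (log2 -0.71 and -0.81).

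At Meis1, the intergenic region at +177.2 kb (chr11:18841013-18842583), past the end of the gene, had 2.19, 4.51 and 7.15 CPM and was 3.27 times higher at E16.5 (log2 1.71, 1.39 to 2.05). Its called width was 535, 673 and 1571 bp, and the ratio per kb was 0.16. The intronic region at +36.4 kb (chr11:18982239-18982960) had 4.72, 0.792 and 0.563 CPM and was 8.39 times lower (log2 -3.07, -3.44 to -2.70, and -0.97 per kb). It held 177, 81 and 95 fragment equivalents, so it reached the minimum mean count for a named region only through the E12.5 library, where it was highest. Outside the start, the most open region, centred at +142.1 kb (chr11:18873669-18880044), touched the end of Meis1, lay mostly past it in 8430419K02Rik and had 37.6, 30.9 and 36.9 CPM. Its E12.5 and E16.5 intervals overlapped.

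At Shox2, the regions called in every library with the largest increase and the largest decrease were both intergenic and past the end of the gene. The one at +21.3 kb (chr3:66959059-66961916) had 6.64, 1.78 and 10.8 CPM, a log2 ratio of 0.70 (0.51 to 0.90) and 0.12 per kb. Its called width was 1910, 277 and 2858 bp, and per kb it was highest at E14.5 (3.48, 6.42 and 3.78 CPM per kb). The one at +41.9 kb (chr3:66939509-66940152) had 4.37, 1.21 and 1.27 CPM and was 3.43 times lower (log2 -1.78, -2.08 to -1.48, and -1.10 per kb). Its called width was 644, 140 and 401 bp, with 6.79, 8.66 and 3.18 CPM per kb. At Meis3, an exonic region at +8.6 kb (chr7:16183597-16184138) had 4.08, 2.75 and 1.70 CPM and was 2.40 times lower, with close values by count and per kb (log2 -1.26 and -1.06). The intergenic region at +17.4 kb (chr7:16192159-16193229) had 2.85, 3.24 and 5.5 CPM (log2 0.95, 0.66 to 1.25, and 0.17 per kb). The most open Meis3 neighbour, the Slc8a2 promoter, had 38.9, 57.4 and 41.5 CPM. At Pbx2, the most open region was the promoter of Agpat1 and Rnf5, with 117, 129 and 102 CPM. The region just upstream of Pbx2 (chr17:34589353-34590335) had 1.41, 0.772 and 4.11 CPM and was 2.90 times higher at E16.5 (log2 0.90 per kb). It held 53, 79 and 693 fragment equivalents. It thus reached the minimum mean count for a named region only through the E16.5 library, where it was highest, which favours a high ratio. The region at +49.9 kb (chr17:34640525-34641821) had 15.5, 5.90 and 9.37 CPM and was 1.65 times lower. The most open Shox2 neighbour, a second Rsrc1 promoter, had 25.4, 27.1 and 20.9 CPM.

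**Figure D3:**
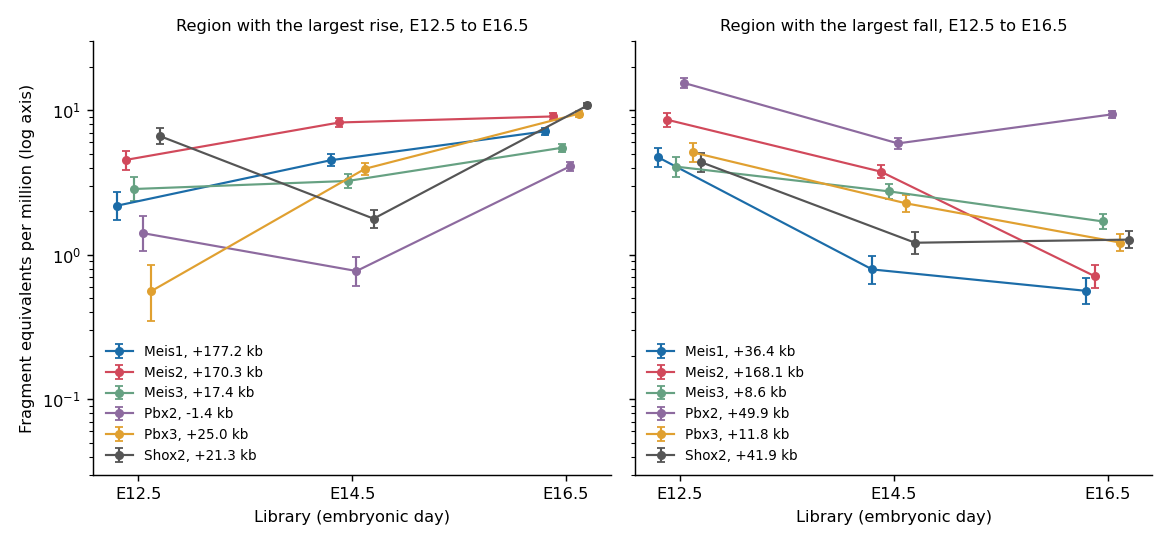
CPM (log axis) against library, with 95% counting intervals. For each gene the region with the largest increase (left) or decrease (right) from E12.5 to E16.5 among those called in every library is shown. The legend gives the distance from the first start site. These regions were picked for the difference they show. Pbx3 +25 kb goes from 0.560 CPM, on 21 fragment equivalents, to 9.48 CPM and Meis2 +168.1 kb from 8.61 to 0.711 CPM.

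Within the E16.5 library, where the same called peaks serve all nuclei, nuclei were split by how many fragments they had at lists of lineage loci outside the member windows. A gate held the nuclei that reached the smallest number of fragments that at most 10% of nuclei reached, after thinning to 7187 fragment equivalents each. Gates are ranges of a score and not cell types. They held 1030 nuclei (chondrogenic loci such as Acan and Col2a1, at least 5 fragments), 653 (tenogenic, such as Scx and Tnmd, at least 5), 1026 (fibrogenic, such as Dpt and Pi16, at least 6) and 759 (dermal fibrogenic, such as Col7a1, Rspo1 and Lef1, at least 8) of 10537. Between 292 and 524 of these nuclei sat exactly at the minimum, and between 22 and 90 nuclei were in any pair of these 4 gates.

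In dermal fibrogenic-gated nuclei the Meis1 window had 275 CPM against 208 CPM in all other nuclei, a log2 ratio of 0.40 (0.33 to 0.48). The Pbx3 window had 129 against 111 CPM (0.21, 0.10 to 0.33) and the Meis2 window 210 against 184 CPM (0.19, 0.10 to 0.28). Shox2, Meis3 and Pbx2 had ratios of -0.07, -0.10 and 0.05, each with an interval that included 0, and the median over all windows was -0.04. In chondrogenic-gated nuclei Meis2 was lower, at 152 against 189 CPM (-0.31, -0.40 to -0.23), and so were Meis1, at 186 against 215 CPM (-0.21, -0.29 to -0.13), and Meis3 (-0.13, -0.25 to -0.01), where the median window was 0.07. The Pbx2 window was higher, at 284 against 254 CPM (0.16, 0.10 to 0.23). It includes the promoter of Agpat1 and Rnf5. By the criterion given below, 0 of its 4 non-promoter regions were counted as higher in this gate (background 13.1%), too few regions to compare with that share. Their median log2 ratio was 0.13, beside -0.46 over all autosomal non-promoter regions. The part of either class in the Pbx2 window ratio was not tested. The intervals of Shox2 (-0.09) and Pbx3 (0.05) included 0. In fibrogenic-gated nuclei Shox2 was higher, at 132 against 117 CPM (0.18, 0.08 to 0.28), Meis1 (-0.09, -0.17 to -0.01) and Pbx2 (-0.11, -0.18 to -0.03) were lower, and the median window was -0.06. In tenogenic-gated nuclei Meis1 was lower, at 189 against 214 CPM (-0.18, -0.28 to -0.08), and the other 5 intervals included 0. At E14.5, Meis1 was likewise higher in the dermal fibrogenic gate (0.21, 0.08 to 0.34), and Shox2, not separated from 0 at E16.5, was higher in it, at 152 against 130 CPM (0.22, 0.07 to 0.38). In the chondrogenic gate Meis2 went the other way at E14.5, at 162 against 144 CPM (0.18, 0.02 to 0.33, but -0.026 with another random thinning). The other E14.5 intervals in these 4 gates included 0. At E12.5 those that left out 0 were of the fibrogenic gate, for Meis2 (-0.94, -1.55 to -0.40, but 0.42 with another random thinning) and Meis3 (-1.26, -2.40 to -0.33, from 9 gated fragments). Differences between stages in these ratios were not tested.

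Single regions differed far more than windows. A region was counted where its level in gated nuclei was at least 1.5 times higher or lower than in the rest and the counting interval left out 1, among non-promoter regions with at least 100 fragments. In the dermal fibrogenic gate 14 of 70 member regions were higher (20%, background 16.1%) and 15 lower (21.4%, background 22.5%). In the chondrogenic gate 6 were higher (background 13.1%) and 24 lower (34.3%, background 35.1%). In the tenogenic gate 2 were higher (8.08%) and 6 lower (8.58%), and in the fibrogenic gate 8 were higher (9.77%) and 8 lower (15%). These shares are read as no more than the background. Many of the counted regions did not keep their fold under all 4 alternative gates. In the fibrogenic gate 1 of the 8 higher and 5 of the 8 lower regions did, in the tenogenic gate 2 of 2 and 1 of 6, in the chondrogenic gate 3 of 6 and 14 of 24, and in the dermal fibrogenic gate 11 of 14 and 9 of 15. Of the regions counted as higher, 2 in the dermal fibrogenic gate (Meis2 +22.7 kb and Pbx3 +119.1 kb) and 1 in the chondrogenic gate (Meis3 +8.6 kb) reached 100 fragments only through the gated nuclei, so their ratios are not given.

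Pbx3 +25 kb had 29.3 CPM in dermal fibrogenic-gated nuclei and 5.93 CPM in the rest, 4.94 times higher (4.09 to 5.95). The same element was lower in the chondrogenic gate (0.40 times, 0.25 to 0.60), in the fibrogenic gate (0.47 times, 0.31 to 0.69) and in the tenogenic gate (0.57 times, 0.35 to 0.88), though in the last of these 1 of the 4 alternative gates lost the call, at 0.85 times. At E14.5 it was already 2.26 times higher in dermal fibrogenic-gated nuclei (1.31 to 3.68). Meis1 +177.2 kb had 18.5 against 4.2 CPM in the dermal fibrogenic gate (4.41 times, 3.48 to 5.55), with 0.36 times in the chondrogenic gate, 0.39 times in the fibrogenic gate, 0.85 times in the tenogenic gate (an interval that included 1) and 2.72 times (1.70 to 4.2) in the dermal fibrogenic gate at E14.5. Both were the regions with the largest increase from E12.5 to E16.5 among those of their genes called in every library. Of the other 4 such regions, Meis2 +170.3 kb was lower in the dermal fibrogenic gate (0.44 times, 0.26 to 0.71), and those of Meis3 (1.35 times), Shox2 (1.0) and Pbx2 (0.88) had intervals that included 1.

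In the dermal fibrogenic gate, 6 of 23 Meis1 regions were higher (background 16.1%) and 4 lower (22.5%), beside 4 and 4 of 22 at Meis2, 1 and 2 of 7 at Meis3, 1 and 1 of 4 at Pbx2, 2 and 2 of 8 at Pbx3 and 0 and 2 of 6 at Shox2. No gene is set apart by these counts. At Meis1, an intronic region at +29.7 kb, called at E12.5 (1.04 CPM) and E16.5 (9.34 CPM) only, had 19.6 against 6.42 CPM (3.06 times, 2.45 to 3.78). The other higher regions were those at +47.0 kb (3.45 times), +120.4 kb (2.38 times), -38.3 kb (2.11 times, 1.36 to 3.16) and +173.1 kb, in an exon of 8430419K02Rik (1.92 times). Of these, the region at -38.3 kb had a lower level at E16.5 (2.99 CPM) than at E12.5 (4.29 CPM). The lower regions were at +58.9 kb (0.22 times, from 2 gated fragments), +78.0 kb (0.44), -33.9 kb (0.47) and +88.2 kb (0.54). The calls at +58.9 and +88.2 kb were lost under at least 1 alternative gate, where their ratios reached 0.91 and 0.74. At Meis2, the regions at +142.3 and +71.5 kb were higher (2.62 and 2.25 times), while +170.3 kb was lower in this gate, as given above, and higher in the tenogenic gate (1.61 times, 1.19 to 2.15). The Meis2 region at +56.5 kb was 0.28 times in the former and 2.27 times (1.5 to 3.32) in the latter.

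In the chondrogenic gate, Shox2 +47.2 kb (chr3:66934189-66934877), an intergenic region called at E16.5 alone, had 6.21 against 1.73 CPM (3.60 times, 2.5 to 5.10). Pbx3 +142.0 kb (chr2:34229321-34230675), in an intron, had 5.27 against 1.52 CPM (3.46 times, 2.33 to 5.05). At E14.5 it had 44 fragments, under the minimum of 100, and its ratio there is not given. Its level by stage was 6.91, 1.07 and 2.35 CPM. Meis1 regions at +88.2, +73.9 and +60.8 kb were 1.56, 1.63 and 1.5 times higher, values that did not hold under every alternative gate. At E14.5 the first of these was lower in the chondrogenic gate (0.28 times, 0.06 to 0.84), and the others had intervals that included 1. By stage, Meis1 +88.2 kb had 15.2, 4.65 and 4.88 CPM and Meis1 +73.9 kb 15.2, 3.78 and 4.51 CPM.

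**Figure D4:**
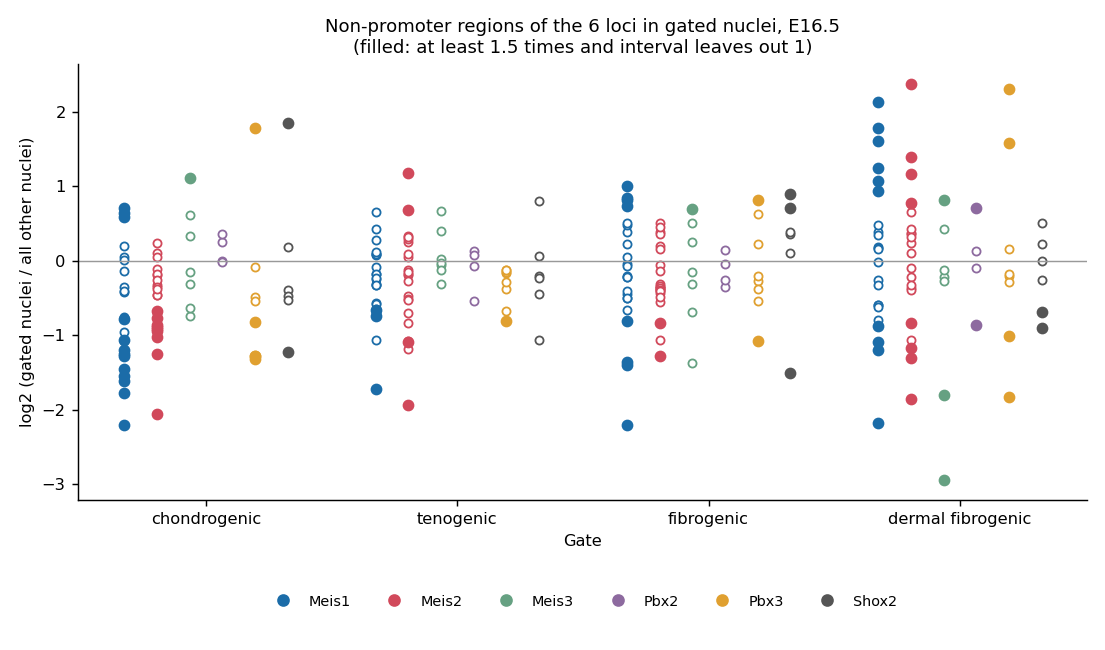
Log2 ratio of gated nuclei over all other nuclei of the E16.5 library (y axis) for the non-promoter regions of each gene with at least 100 fragments, in 4 gates (x axis, coloured by gene). Filled points are at least 1.5 times higher or lower with a counting interval that leaves out 1. In the dermal fibrogenic gate Pbx3 +25 kb and Meis1 +177.2 kb lie at log2 ratios of 2.31 and 2.14; the Meis2 point above them reached 100 fragments only through the gated nuclei.

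Loci of cells outside the sort were compared between the same nuclei. The summed epithelium loci (Krt5, Krt14 and Epcam) had 18.9 CPM in gated nuclei and 22.9 in the rest, a ratio of 0.82 (0.67 to 1.01). The 5 limb mesenchyme loci other than Twist2, which is in the gate list, had 605 against 488 CPM, a ratio of 1.24 (1.2 to 1.28). The muscle loci were at 1.14 (1.0 to 1.29), the endothelial at 1.12 (1.01 to 1.23), the blood at 1.19 (0.97 to 1.44) and the Schwann at 1.06 (0.90 to 1.25). Their part in the dermal fibrogenic ratios was not tested. In chondrogenic-gated nuclei the blood loci had a ratio of 1.77 (1.52 to 2.05) and the Schwann loci 1.31 (1.15 to 1.49), at 28.1 and 36.7 CPM, while the mesenchyme loci had 0.88 and the endothelial 0.74, and promoter peaks took 44.5% of fragments against 40.2% in the rest. The part of these values in the chondrogenic ratios was not tested. In fibrogenic-gated nuclei the blood loci were at 0.57 (0.45 to 0.72) and the epithelium loci at 0.50 (0.40 to 0.62), and the intervals of the other lists included 1. In tenogenic-gated nuclei the epithelium loci were at 0.60 (0.46 to 0.76), the endothelial at 0.76 (0.67 to 0.85) and the mesenchyme at 1.06 (1.02 to 1.11), and the other intervals included 1. Their part in the ratios of these gates was not tested.

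Hoxa13, Hoxd12 and Hoxd13 mark the distal limb. The elbow segment used at E16.5 does not include the autopod, so a gate on these loci need not select distal limb nuclei there. The gate held 985 nuclei with at least 2 fragments at 4 peaks, 787 of them with exactly 2. By the same criterion, 0 of 70 member regions were higher and 0 lower (background 2.36% and 4.5%), and window log2 ratios lay between -0.04 for Pbx2 and 0.12 for Shox2 (0.02 to 0.22). At E14.5, in whole forelimbs, Meis1, Meis2 and Shox2 had ratios of -0.12, -0.14 and -0.13 and intervals that included 0 and reached from -0.36 to 0.09. Those of Meis3, Pbx3 and Pbx2 were 0.12, 0.07 and 0.04, also with intervals that included 0. Among 32 non-promoter member regions at E14.5, 1 was higher and 1 lower, where 2.92% and 4.16% of all were. Meis1 +120.4 kb was the lower one (0.16 times, from 1 gated fragment) and Meis3 +17.4 kb the higher one (2.52 times, from 10). At E12.5 the gate held 76 nuclei. The Shox2 window had 40.2 against 106 CPM there (log2 -1.40, -3.28 to -0.04), but from 4 fragments, and the ratio was 0.42 with another random thinning. Meis2 had 281 against 180 CPM (0.64, 0.05 to 1.18) and Meis1 231 against 232 CPM.

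Window sums were also taken for 15 other genes, of the TALE class or of retinoic acid metabolism and signalling. They include Pbxip1, which is not a TALE gene but encodes a Pbx-interacting protein. Their median log2 ratios were -0.06 from E12.5 to E14.5, 0.12 from E14.5 to E16.5 and 0.03 from E12.5 to E16.5. Over all windows the medians were -0.02, 0.10 and 0.08. Dhrs3, a retinaldehyde reductase, had 106, 128 and 160 CPM and the largest log2 ratio from E12.5 to E16.5, at 0.59 (0.54 to 0.64). Its called width was 14.5, 12.6 and 24.5 kb. Per kb of called width it had 7.33, 10.1 and 6.52 CPM per kb, lower at E16.5 than at E12.5. Aldh1a2, which makes retinoic acid, had 134, 93.9 and 145 CPM, and Cyp26b1, which degrades it, had 175, 139 and 134 CPM (-0.38, -0.42 to -0.34). The receptor gene Rarb had 243, 211 and 247 CPM. Pknox2, a TALE gene, had 381, 279 and 320 CPM and a ratio of -0.25 (-0.28 to -0.23). Per kb of called width Aldh1a2, Cyp26b1, Rarb and Pknox2 were, like Dhrs3, highest at E14.5 and lowest at E16.5.

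Over the 15 pools made by 5 gates in 3 libraries, the accessibility of the Meis1 gene body and 2 kb upstream was most like that of Itpr2 and Lamc3 among 10197 protein-coding genes, by the Euclidean distance of centred log2 levels (0.667 and 0.727). Meis2 was nearest to Fam178b and Peli2 (0.732 and 0.758), Pbx3 to Nt5c2 and Fam219a (0.564 and 0.601) and Shox2 to S1pr3 and Clec18a (0.698 and 0.886). Meis3 and Pbx2 lay below the median of accessibility summed over gene body and 2 kb upstream, which is not a value per kb, and were not compared. The pools share nuclei and depth within a library, so these distances are descriptions. Some pools are small. The distal limb gate at E12.5 held 76 nuclei, with 4 fragments in the Shox2 window. With another random thinning the log2 ratio of that window in this gate went from -1.40 to 0.42. The distances were taken from 1 thinning, and the part of counting noise in the nearest genes was not tested.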

How the data were processed

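Single-nucleus chromatin accessibility was measured in 3 libraries, 1 per stage. The authors deposited, per library, a peak list and a matrix of counts of Tn5 cut sites per peak and nucleus, made with Cell Ranger ATAC against mm10. The study's notes name version 1.1.0, whereas the file headers give 1.0.1 for E12.5 and E14.5 and 1.2.0 for E16.5. Because 1 fragment mostly adds 2 cut sites, counts were halved and rounded up per nucleus and peak. Each library has its own peak calls, so called width and depth differ between stages.

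Peaks were merged where they overlapped by at least 1 bp, and levels were scaled per 1000000 fragment equivalents in autosomal regions called in all 3 libraries. A library's level at a merged region sums only the fragments in its own peaks there. A promoter reached from 1000 bp before to 100 bp after a GENCODE M21 basic start site. For each gene the text names its own start region and, among regions called in every library with a mean of at least 100 fragment equivalents, the most accessible one and those with the largest increase and decrease from E12.5 to E16.5; regions named from the gates were chosen after their values were seen. Intervals (exact Poisson, Clopper-Pearson or conditional binomial, 95%) cover counting error only. Gates used nuclei thinned to the 25th percentile of depth of their library, and no doublet caller was run. Members, gene lists and gates were chosen with earlier results of these data known. Scripts (Python 3.11.15, numpy 2.4.6, pandas 2.3.3, scipy 1.17.1, matplotlib 3.10.9) were tested on simulated data. Alternatives covered scaling, matched regions, called width, thinning, window size, promoters, gate size and random seed.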

Additional observations from a re-analysis of the deposited data

How the results depend on the processing

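No paired analysis was possible because each stage has 1 library and no replicate. Over the gene body and 2 kb upstream the peaks numbered 86, 38 and 93 in order of stage, and 87 peaks at E12.5 had a count in at least 1% of nuclei. The member median log2 ratio from E12.5 to E14.5 was -0.11 over regions of matched position, 0.43 per kb of called width, -0.11 as a share of thinned nuclei and -0.64 without promoters. Between E14.5 and E16.5 the median was -0.13 when scaled to all counts in peaks, -0.029 over matched regions, -0.66 per kb and -0.15 as a share of nuclei, against 0.14 as reported, so that its direction depends on these choices. From E12.5 to E16.5 it was -0.25 per kb and -0.30 without promoters. The cause was not tested.

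Apart from called width, window ratios turned for Pbx3 over regions called in every library (0.00961 from E12.5 to E14.5, -0.014 from E14.5 to E16.5). They also turned for Meis3 and Pbx2 without promoter peaks (-0.87 and -0.14 from E12.5 to E14.5) and for Pbx2 over the gene body and 2 kb upstream (0.21 from E12.5 to E16.5). Per kb of called width, negative ratios from E12.5 to E14.5 became 0.66 for Meis1, 0.49 for Meis2 and 1.38 for Pbx3. Positive ratios from E14.5 to E16.5 became -0.76 for Meis1, -0.57 for Meis2, -1.04 for Pbx3 and -0.90 for Shox2. Those per kb from E12.5 to E16.5 are given with the window sums. In gated nuclei the turned log2 ratios were, with random seed 2, 0.42 for Meis2 in the fibrogenic gate at E12.5, -0.026 for Meis2 in the chondrogenic gate at E14.5 and 0.42 for Shox2 in the distal limb gate at E12.5, which was 0.087 for the top 20%. Pbx3 in the distal limb gate at E16.5 was -0.069 for the top 5%. The region alternatives, chosen after seeing the data, turned Meis1 region 31 (+58.9 kb) in the fibrogenic gate (-0.19 for the top 5%, -0.40 with seed 2), Pbx2 region 16 (+49.9 kb) in the dermal fibrogenic gate (0.021 with seed 2) and the Slc8a2 promoter from E12.5 to E16.5 (-0.44 per kb). The tallies that follow count each ratio once per alternative setting. Of 329 such comparisons for region ratios in gated nuclei, 303 moved by less than the counting interval, 23 moved by more and 3 turned. A further 3 had no gated fragment and so no ratio. Of 450 comparisons for window ratios in gated nuclei, 391 moved by less, 54 by more and 5 turned. Among these, leaving out the promoter peaks of all genes moved 66 by less and 24 by more and turned 0. How many regions kept the criterion of 1.5 times under every alternative gate is given with the gates. The tally of stage ratios for windows leaves out values per kb of called width. In it, 25 of 90 comparisons moved by less than the counting interval, 60 by more and 5 turned. Of the stage ratios for regions per kb of called width, 7 of 24 moved by less, 16 by more and 1 turned.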
